A study of Mus musculus with 15 samples.

Results

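The step of culture from 36 h to 48 h was examined in mouse dental mesenchymal cells (mDMCs), in 6 of the 15 RNA-seq libraries of the series and over all 12089 transcripts of the deposited table. The cells came from ICR mouse embryos. The dental mesenchyme of the lower molar germ was separated with dispase, dissociated with trypsin and cultured in FBS-supplemented medium. The label D1.5 marks the 3 libraries of 36 h and the label D2 the 3 libraries of 48 h, and both times were wild-type cells with no treatment other than culture. The series also holds mDMCs at 0 h (3 libraries), 12 h (2) and 24 h (3), used here for the course before 36 h, and 1 library of dental mesenchymal tissue, not used here. The labels do not say which replicates were separate isolations or dishes, so p-values measure only the spread between these libraries, which may be technical. The question was which genes still moved in the last 12 h of the course, and how far any movement exceeded the spread between libraries.

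Dental mesenchyme of the early tooth germ signals to the epithelium through BMP, FGF and Wnt ligands, is marked by homeobox factors such as Msx1, Pax9 and the Dlx genes, and later gives rise to the pulp and the odontoblasts. Isolated cells in serum spread and divide, and their transcripts then also report nutrients, oxygen and density in the dish. The main such systems are the HIF pathway, which raises glycolytic enzymes when oxygen is low, the SREBP pathway, which raises sterol and fatty acid enzymes when membrane cholesterol is low, and the Nrf2 pathway, which raises antioxidant enzymes under oxidative load.

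The deposited values are whole-number scores that had been brought to one common distribution before deposition: in each of the 6 libraries the median was 721 and the largest value 127101, and the totals lay between 21361674 and 21365800. A score is thus a rank-like level within its library, the depth is unknown, and a change in the total RNA of the cells cannot be seen. Because high ranks carry fixed values, 73 transcripts held a single value in all 3 libraries of 36 h and 42 in all 3 of 48 h, and for these the spread between libraries is understated. Differences below are on the scale log2(score + 1), 48 h minus 36 h, with the standard error (SE) of limma, and values written with ± are log2 differences with their SE. A gene is said to rise or fall where limma's p was below 0.05, the p-value threshold of the study. The study's rule added a fold change above 2, and the Benjamini-Hochberg adjusted p over all 12089 transcripts is given beside the leading genes.

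Replicates differed among themselves nearly as much as the times did. Between pairs of libraries the root mean square log2 difference over transcripts was 0.289 to 0.45 within 36 h, 0.354 to 0.465 within 48 h and 0.389 to 0.521 between the times. Replicate 1 of 48 h was nearer to replicates 1 and 2 of 36 h (0.389 and 0.41) than to replicates 2 and 3 of its own time (0.445 and 0.465). On the first principal component of the 6 libraries, which held 38.1% of the variance, the 36 h libraries lay at -17.1, -17.3 and -15.3 and the 48 h libraries at -3.6, 23.1 and 30.2, with no overlap but with replicate 1 of 48 h between the rest. The second component (23.7%) set replicate 3 of 36 h (31.8) apart from the other 5 (-12.9 to 2.6). The spread was also larger at the later time: the median SD over transcripts was 0.091 at 36 h and 0.142 at 48 h on the log2 scale, and 66.9% of transcripts had the larger SD at 48 h. The means of the 2 times differed by a root mean square of 0.328, where the spread between replicates alone would give 0.236.

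**Figure D1:**
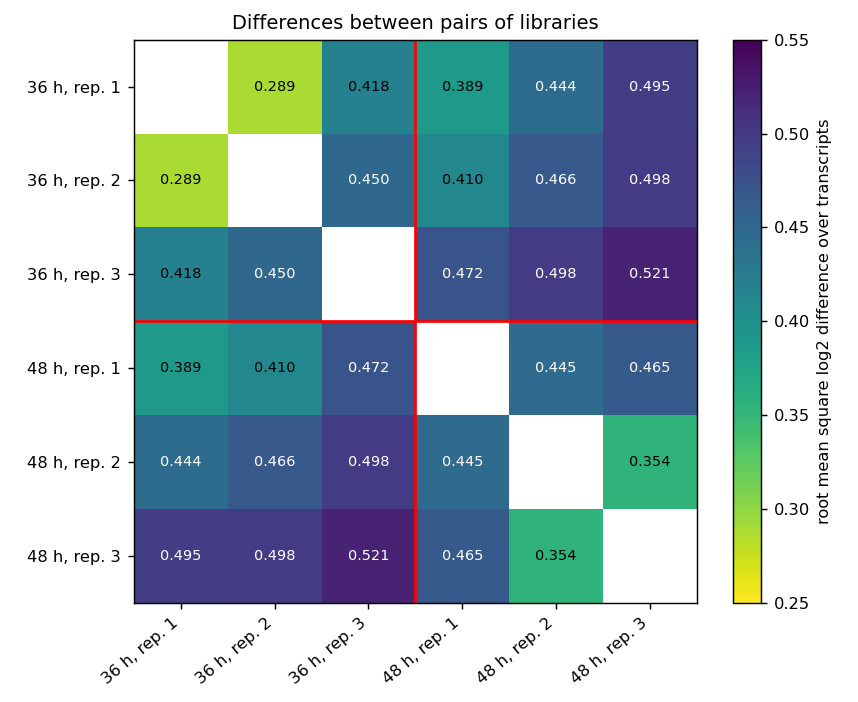
Root mean square log2 difference over all transcripts between each pair of the 36 h and 48 h libraries, on a colour scale with the value printed in each cell and lines between the times. The smallest difference (0.289) joins replicates 1 and 2 of 36 h, and the row of 48 h replicate 1 shows smaller values toward 36 h replicates 1 and 2 than toward its own group.

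The cell label was checked against defining markers. All 10 markers of dental mesenchyme had values, with a summed score of 46254 to 49521 at 36 h and 47979 to 57031 at 48 h. Of the 12 epithelial markers 9 had values, and their sum was 531, 608 and 91 at 36 h and 370, 1232 and 676 at 48 h. Skeletal muscle markers (6 of 8 with values) summed to 4145, 4377 and 763 at 36 h and 2459, 1958 and 1154 at 48 h. Replicate 3 of 36 h was thus the lowest library for both. Endothelial markers (9 of 10) summed to 3396 to 3879 at 36 h and 1879 to 3469 at 48 h, with Flt1 as the main contributor, while the defining marker Pecam1 was near the bottom of the scale (11, 13 and 13 at 36 h and 9, 7 and 18 at 48 h). Macrophage markers (6 of 12) summed to 558 to 607 and 480 to 592, glial markers (4 of 8) to 541 to 590 and 580 to 717, pericyte markers (6 of 6) to 11009 to 12116 and 10431 to 11888, and erythroid markers (8 of 10) to 72 to 266 and 52 to 168. Single markers that fell were the endothelial Flt1 (-0.65 ± 0.25), the macrophage Mrc1 (-0.57 ± 0.21), the erythroid Hbb-bs (-1.45 ± 0.54) and the pericyte genes Abcc9 (-0.88 ± 0.30) and Kcnj8 (-1.62 ± 0.66), and the glial Fabp7 rose (0.49 ± 0.17). By sign alone, the difference was positive for 4 and negative for 4 endothelial markers, 3 and 3 pericyte, 1 and 5 macrophage, 2 and 5 erythroid and 3 and 1 glial markers. It was positive for 3 and negative for 3 skeletal muscle markers, and positive for all 9 epithelial markers. The epithelial median was 0.934, and 0.37 without replicate 3 of 36 h. With all libraries in the fit, no epithelial or muscle marker reached p below 0.05. No marker passed in 4 of the 6 fits that left out a library for the erythroid list, in 3 for the endothelial, in 2 for the macrophage and glial lists and in 1 for the pericyte list. In bulk RNA, fewer cells of a type and less RNA per cell cannot be told apart, and the part of these cells in the results below was not tested.

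The step was small for most genes. The median log2 difference was 0.011, the lowest and highest 5% of transcripts lay below -0.502 and above 0.403, and 8216 transcripts (68%) differed by less than 0.2. The median SE was 0.137, so that the 95% confidence interval of the difference stayed within 2-fold for 10690 transcripts (88.4%) and within 1.5-fold for 8234 (68.1%). By the study's rule, a p-value below 0.05 with a fold change above 2, 48 transcripts (0.397%) rose and 116 (0.96%) fell. Of these, 17 risen and 37 fallen transcripts had a mean score under 100 at both times, which held for 9.11% of all transcripts. At p below 0.05 with any fold, 773 (6.39%) rose and 844 (6.98%) fell, 13.4% in all. All 3 libraries of 48 h lay above all 3 of 36 h for 1553 transcripts (12.8%) and below for 1468 (12.1%). A further 79 transcripts differed by more than 2-fold without reaching p below 0.05.

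**Figure D2:**
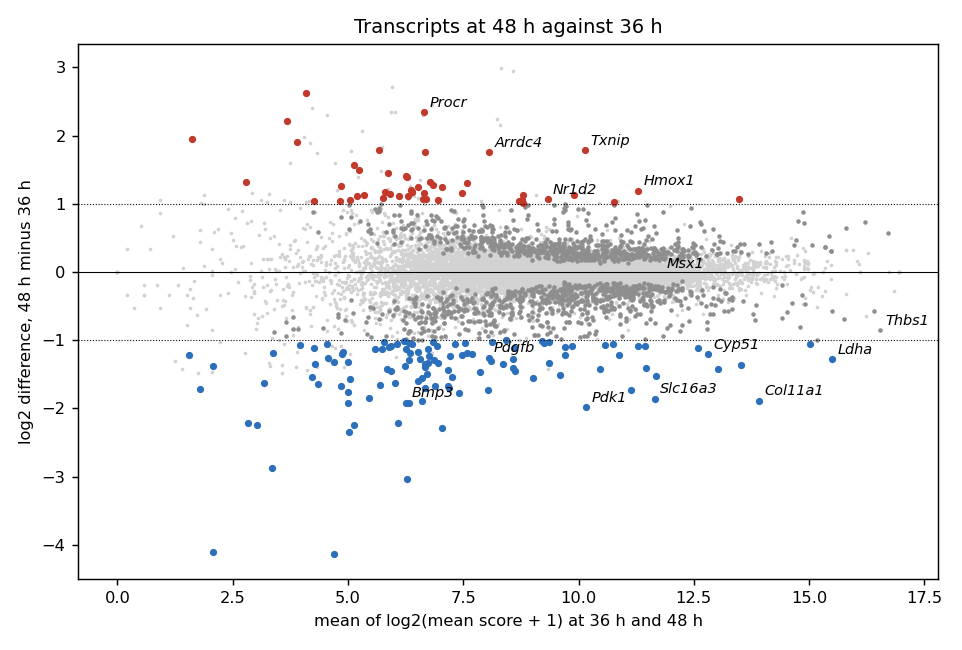
Log2 difference of 48 h minus 36 h for each of 12089 transcripts against the mean log2 level of the 2 times. Red and blue points are the 48 risen and 116 fallen transcripts past p below 0.05 and 2-fold (dotted lines), dark grey points passed p below 0.05 at a smaller fold, and light grey points did not pass.

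After adjustment over all transcripts, 3 genes (0.0248%) fell at an adjusted p below 0.05 and none rose, with 7 risen and 20 fallen transcripts under an adjusted p of 0.1. Pcsk6 and Spock2 did not reach 2-fold. Thbs1, which encodes the matrix protein thrombospondin 1 (chromosome 2, 118111876 to 118127133, + strand, mm10), held the largest score 127101 in every library of 36 h and 70508 in every library of 48 h (-0.85 ± 0.09, adjusted p = 0.00481). Since 10 transcripts share the largest score in every library, its difference is a fixed step between tied top values and its size cannot be read. Its replicate spread is 0 by the same scale, and its p rests on the other times and on the spread of other genes. Pcsk6, a proprotein convertase that activates TGF-beta family ligands (chromosome 7, 65861734 to 65952984, + strand), scored 1484, 1564 and 1809 at 36 h and 880, 873 and 780 at 48 h (-0.94 ± 0.12, adjusted p = 0.0179). Spock2, a testican proteoglycan of the matrix (chromosome 10, 60106219 to 60127338, + strand), scored 180, 184 and 172 at 36 h and 111, 79 and 89 at 48 h (-0.95 ± 0.14, adjusted p = 0.0442). The transcript listed for Spock2 is annotated as a retained intron and not as protein coding. The count rested on the libraries: without replicate 1 of 48 h, 97 transcripts rose and 103 fell at an adjusted p below 0.05, and without replicate 1 of 36 h none passed in either direction. By the study's rule the risen transcripts were 103 without replicate 1 of 48 h and 29 without replicate 3 of 48 h, and the fallen ones stayed between 101 and 170 as any 1 library was left out.

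The largest rises among genes with separate libraries and a mean score of at least 100 included a protein C receptor and a pair of arrestin-domain genes. Procr, the endothelial protein C receptor, scored 46, 38 and 31 at 36 h and 105, 136 and 523 at 48 h (2.34 ± 0.60, adjusted p = 0.155). Replicate 3 of 48 h stood far above the other libraries, while the summed endothelial markers were lowest in that library. Txnip, which binds thioredoxin and restrains glucose uptake, scored 762, 805 and 304 at 36 h and 1435, 2752 and 1945 at 48 h (1.79 ± 0.62, adjusted p = 0.240). Without replicate 3 of 36 h its log2 difference was 1.33 and it did not pass. Its paralog Arrdc4 scored 176, 157 and 102 at 36 h and 388, 527 and 538 at 48 h (1.75 ± 0.52, adjusted p = 0.186). All 3 libraries of 48 h lay at least 2-fold above the highest of 36 h for Arrdc4, and the groups were also separate for Txnip. Further rises were found for Fam83g at 1.78 ± 0.64, the orphan receptor Gpr149 at 1.75 ± 0.61, Tmem37 at 1.39 ± 0.48, the torsin family member Tor4a at 1.32 ± 0.30, the cholecystokinin receptor Cckar at 1.28 ± 0.56, Cend1 at 1.25 ± 0.29 and the synaptic vesicle protein Svop at 1.25 ± 0.57. These 7 had mean scores of at most 193 at 48 h, and 5 of them (Fam83g, Gpr149, Tmem37, Cckar and Svop) no longer reached p below 0.05 when 1 of the libraries was left out.

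The 10 largest falls were taken by the same rule, with separate libraries and a mean score of at least 100. Pdk1, a mitochondrial kinase that inhibits pyruvate dehydrogenase, scored 1832, 1879 and 2648 at 36 h and 1120, 303 and 435 at 48 h (-1.98 ± 0.54, adjusted p = 0.161). Slc16a3, the lactate exporter MCT4, scored 4856, 4923 and 5665 at 36 h and 4373, 582 and 1107 at 48 h (-1.86 ± 0.70, adjusted p = 0.272). Replicate 1 of 48 h was close to the 36 h libraries and the others were far below. Without replicate 2 of 48 h its log2 difference was -1.22 and it did not pass. Col11a1, a fibrillar collagen chain, scored 31886, 31886 and 23247 at 36 h and 11655, 6575 and 6101 at 48 h (-1.89 ± 0.39, adjusted p = 0.115). Bmp3, an antagonistic BMP ligand, scored 114, 107 and 232 at 36 h and 51, 27 and 36 at 48 h (-1.92 ± 0.32, adjusted p = 0.0698). Ramp1, a subunit of the CGRP receptor, scored 459, 451 and 441 at 36 h and 254, 106 and 91 at 48 h (-1.73 ± 0.51, adjusted p = 0.186). The hairless corepressor Hr (-1.90 ± 0.64), Smtnl2 (-1.92 ± 0.40), the carboxypeptidase-like Cpxm2 (-2.21 ± 0.76) and the dipeptidase Dpep1 (-1.77 ± 0.72) also fell. Of these, Hr, Cpxm2 and Dpep1 no longer passed when 1 of the libraries was left out. The amino acid transporter Slc6a14 scored 133, 126 and 132 at 36 h and 44, 90 and 0 at 48 h. Its difference of -3.04 ± 1.36 rested on the library listed at 0, and was -1.04 and did not pass without it.

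Most glycolysis and hypoxia genes fell. Of 29 listed genes 27 had values, and 20 of them fell while none rose, where 6.98% of all transcripts fell. By the study's rule 8 of the 27 fell (0.96% of all), and 3 to 10 as each library was left out. The median log2 difference was -0.593 against 0.011 over all transcripts. These 8 genes were Ldha, Pdk1, Slc16a3, Pfkl, Pfkfb3, P4ha1, Bnip3 and Ankrd37. Ldha, the enzyme that makes lactate from pyruvate, held 70714 in every library of 36 h and scored 40684, 20924 and 28882 at 48 h (-1.28 ± 0.21, adjusted p = 0.0698). Eno1, a glycolytic enolase, scored 28882, 28882 and 28882 at 36 h and 23247, 17403 and 17403 at 48 h (-0.59 ± 0.11, adjusted p = 0.0715). Its near-identical copy Eno1b is in the table too, so that reads may be shared between them. Bnip3l, a HIF target in mitophagy, scored 2448, 2708 and 2809 at 36 h and 1906, 1281 and 1725 at 48 h (-0.71 ± 0.15, adjusted p = 0.120). For each of these 3 genes, named for the smallest p in the list, every 48 h library lay below every 36 h library (12.1% of all transcripts).

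Falls were found along the pathway. Transcripts of the glucose transporter Slc2a1 (-0.86 ± 0.28) and of the hexokinases Hk1 (-0.48 ± 0.11) and Hk2 (-0.55 ± 0.21) fell. So did the phosphofructokinases Pfkl (-1.11 ± 0.27) and Pfkp (-0.68 ± 0.20) and the activating kinase Pfkfb3 (-1.08 ± 0.40). Below them, the isomerases Gpi1 (-0.37 ± 0.10) and Tpi1 (-0.70 ± 0.24), the kinase Pgk1 (-0.99 ± 0.28) and the mutase Pgam1 (-0.49 ± 0.12) fell. Gapdh (-0.30 ± 0.17) and Aldoa (-0.21 ± 0.12) did not pass. Pkm, the pyruvate kinase gene, held 70645 in 5 libraries and 127101 in replicate 1 of 48 h, a step of the tied upper scale (0.28 ± 0.30). Among HIF targets outside glycolysis, the prolyl hydroxylase Egln1 (-0.58 ± 0.13), the demethylase Kdm3a (-0.59 ± 0.19) and the mitophagy gene Bnip3 (4396, 4495 and 6847 at 36 h and 3512, 854 and 1870 at 48 h) fell. Vegfa (-0.53 ± 0.26), Egln3 (-0.50 ± 0.30) and Ndrg1 (-0.39 ± 0.25) overlapped between the times. Hif1a itself, which is controlled mainly at the protein level, scored 5678, 5786 and 6101 at 36 h and 5487, 6101 and 5786 at 48 h, a difference of -0.02 with a 95% interval of -0.19 to 0.15.

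The libraries of 48 h differed in how far this group had fallen. Relative to the 36 h mean, the mean log2 score of the 27 genes was -0.32, -1.182 and -0.806 in replicates 1, 2 and 3 of 48 h, and between -0.068 and 0.127 in the 36 h libraries. As each library was left out in turn, 13 to 21 of the 27 genes fell, with 13 without replicate 2 of 48 h, and 17 fell without replicate 3 of 36 h. The group had moved up in the step before: from 24 h to 36 h the median log2 difference of its members was 0.972. The median over all transcripts for that step is not given here. Both steps share the 36 h libraries, so a high value at 36 h enters both with opposite sign.

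**Figure D3:**
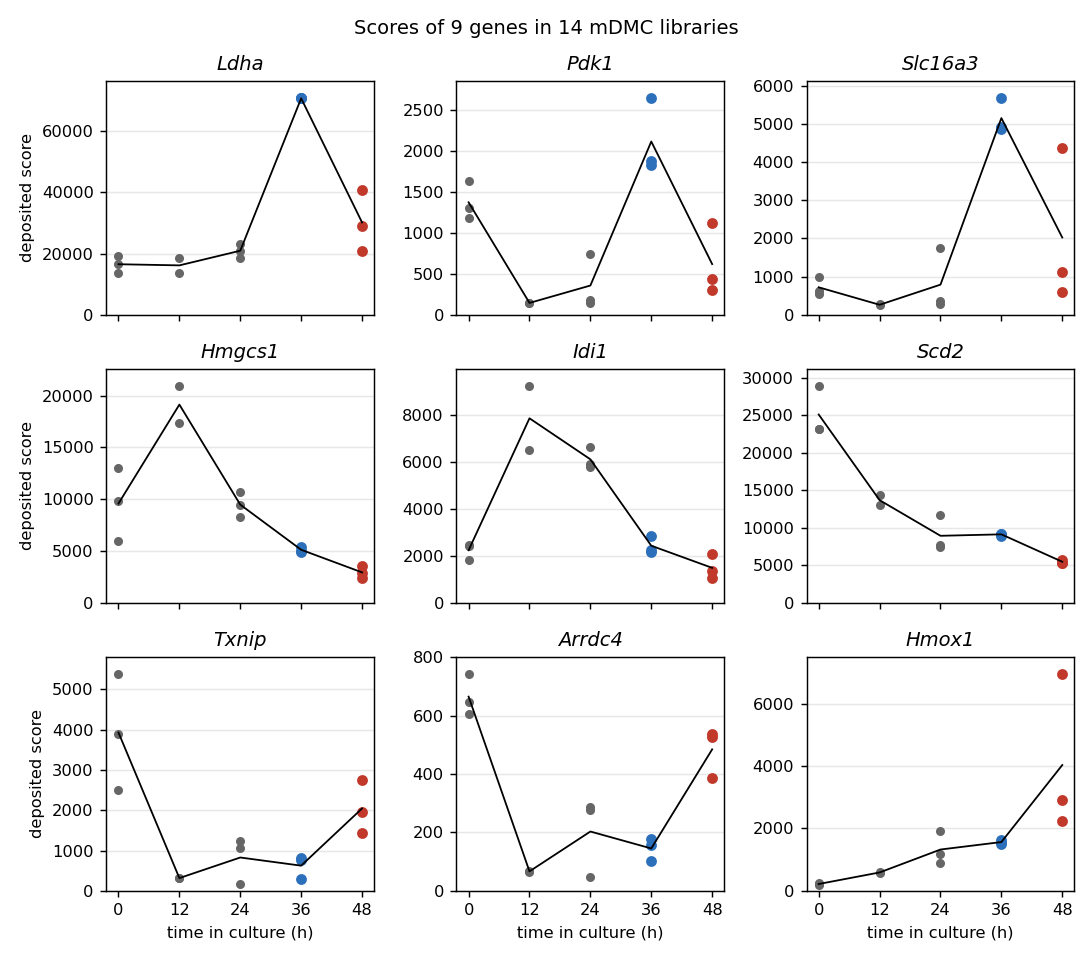
Deposited scores of 9 genes in the 14 mDMC libraries against the time in culture, with a line through the means, blue points at 36 h and red points at 48 h on linear axes from 0. Ldha, Pdk1 and Slc16a3 peak at 36 h, Hmgcs1 and Idi1 decline from 12 h on, Scd2 is highest at 0 h, and Txnip and Arrdc4 are higher at 48 h than at 36 h.

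The turn at 36 h was tested as the change of slope, the step from 36 h to 48 h minus the step from 24 h to 36 h, in the same limma fit. It was downward at an adjusted p below 0.05 for 64 transcripts (0.529%) and upward for 18 (0.149%). Of the 27 glycolysis and hypoxia genes 11 were among the 64. The smallest adjusted p-values belonged to Thbs1 (slope change -1.70 between tied top values, adjusted p = 0.000940), Ldha (-3.05), Eno1 (-1.57), the epoxide hydrolase Ephx1 (-2.48) and Ddias (-0.93), the last 4 each at an adjusted p of 0.00441. Ldha and Eno1 each held a single value in all libraries of 36 h, so the spread behind their p-values is understated too. Ephx1 differs from the rest: it had gained 2.40 from 24 h to 36 h and stayed level afterwards (2463, 2346 and 2372 at 36 h and 2313, 2363 and 2125 at 48 h, a difference of -0.08 ± 0.16), so its turn was an end of the rise, whereas Ldha had gained 1.76 and then fell. Deviations of same-numbered libraries correlated at 0.165, 0.145 and 0.126 for 24 h and 36 h, and at 0.298, 0.2 and 0.315 for 24 h and 48 h. The labels do not say whether the numbers pair the times. With the replicate block the counts were 150 downward and 102 upward. With replicate 1 of 48 h left out the counts were 514 downward and 501 upward, and with replicate 1 of 36 h left out 6 and 0.

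The promoters of the glycolysis and hypoxia genes were read from RefSeq (GRCm38.p6, 250 bases before to 50 after a start) as a description of the whole list. The core of the HIF response element, ACGTG on either strand, was present in 16 of the 25 list promoters found (64%) and in 25.9% of 9279 promoters of the same length from the genes of the table. The second HIF core, GCGTG, was in 60% against 52.9%, and the palindrome CACGTG, which contains ACGTG, in 16% against 10.3%. A match describes the letters and does not show binding, and the shares cover the whole list and not the members that fell. Pdk1, Ldha and Eno1 are shown because they were among the falling genes described above. The Pdk1 and Eno1 windows hold only GCGTG and the Ldha window holds both cores. The windows are chr2:71872974-71873273 (Pdk1), chr7:46845554-46845853 (Ldha) and chr4:150236458-150236757 (Eno1), all on the + strand, with ACGTG or GCGTG and their reverse complements in capitals. The Ldha window is set on a RefSeq start 4328 bases from the start of the transcript in the table.
Pdk1: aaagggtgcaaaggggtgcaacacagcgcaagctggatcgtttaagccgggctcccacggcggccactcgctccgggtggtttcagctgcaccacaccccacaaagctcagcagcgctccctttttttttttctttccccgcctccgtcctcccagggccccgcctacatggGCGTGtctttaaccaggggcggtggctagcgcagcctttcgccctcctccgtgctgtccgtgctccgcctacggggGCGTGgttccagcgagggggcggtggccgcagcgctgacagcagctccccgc
Ldha: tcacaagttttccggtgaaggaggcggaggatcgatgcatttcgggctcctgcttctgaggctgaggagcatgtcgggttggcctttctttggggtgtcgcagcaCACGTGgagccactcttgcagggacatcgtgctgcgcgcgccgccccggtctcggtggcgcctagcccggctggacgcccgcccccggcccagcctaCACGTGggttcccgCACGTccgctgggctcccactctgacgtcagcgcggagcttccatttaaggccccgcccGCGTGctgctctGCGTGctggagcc
Eno1: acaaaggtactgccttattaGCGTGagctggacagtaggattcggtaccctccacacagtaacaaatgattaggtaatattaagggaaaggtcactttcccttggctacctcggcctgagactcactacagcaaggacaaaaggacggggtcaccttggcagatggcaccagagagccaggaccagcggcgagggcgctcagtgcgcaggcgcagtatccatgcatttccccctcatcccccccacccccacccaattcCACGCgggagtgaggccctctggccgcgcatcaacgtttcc

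Most genes of sterol and fatty acid synthesis fell. All 32 listed genes had values, all 32 had a negative difference, and 26 fell at p below 0.05 (6.98% of all transcripts). By more than 2-fold 2 fell (0.96% of all), among them Cyp51, and 1 to 3 as each library was left out. The median was -0.569. Hmgcs1, the synthase at the entry of the mevalonate route, scored 4930, 5039 and 5385 at 36 h and 2385, 2896 and 3517 at 48 h (-0.82 ± 0.23, adjusted p = 0.167). The kinase Pmvk scored 1086, 1083 and 1237 at 36 h and 685, 623 and 737 at 48 h (-0.74 ± 0.15, adjusted p = 0.107). The kinase Mvk (-0.25 ± 0.11), the isomerase Idi1 (-0.76 ± 0.22) and the synthase Fdps (-0.58 ± 0.20) fell too. Below squalene, Sqle, which makes squalene epoxide, scored 3713, 3693 and 3903 at 36 h and 2081, 2064 and 2990 at 48 h (-0.69 ± 0.15, adjusted p = 0.124). The demethylase Cyp51 scored 10099, 9603 and 12971 at 36 h and 4965, 3806 and 5385 at 48 h (-1.21 ± 0.27, adjusted p = 0.124). Every library of 48 h lay below every library of 36 h for 27 of the 32 genes, as for 12.1% of all transcripts.

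Regulators and lipid genes of the same list fell as well. The transcription factor gene Srebf2 scored 3324, 3139 and 3139 at 36 h and 2048, 2007 and 2202 at 48 h (-0.62 ± 0.15, adjusted p = 0.143), and Srebf1 differed by -0.30 ± 0.10. Insig1, the sterol-sensing retention protein, differed by -0.98 ± 0.25. The desaturase Scd2 scored 8961, 9217 and 9217 at 36 h and 5346, 5346 and 5721 at 48 h (-0.74 ± 0.15, adjusted p = 0.107) and Fads2 differed by -0.55 ± 0.14. The mean of the list relative to 36 h was -0.662, -0.674 and -0.335 in the 48 h libraries, so that replicate 3 and not replicate 1 had fallen least. Between 17 and 25 members fell as each library was left out, 17 without replicate 2 of 48 h, 18 without replicate 1 of 48 h and 19 without replicate 3 of 36 h. From 24 h to 36 h the median of the list had already been -0.437, and the median over all transcripts for that step is not given here.

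In 21 promoters of the list that were found, CCAAT on either strand was present in 81% against 39.2% of all 9279, and the sterol element TCACNCCAC in 1 of 21 (4.76%) against 1.03%.

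**Figure D4:**
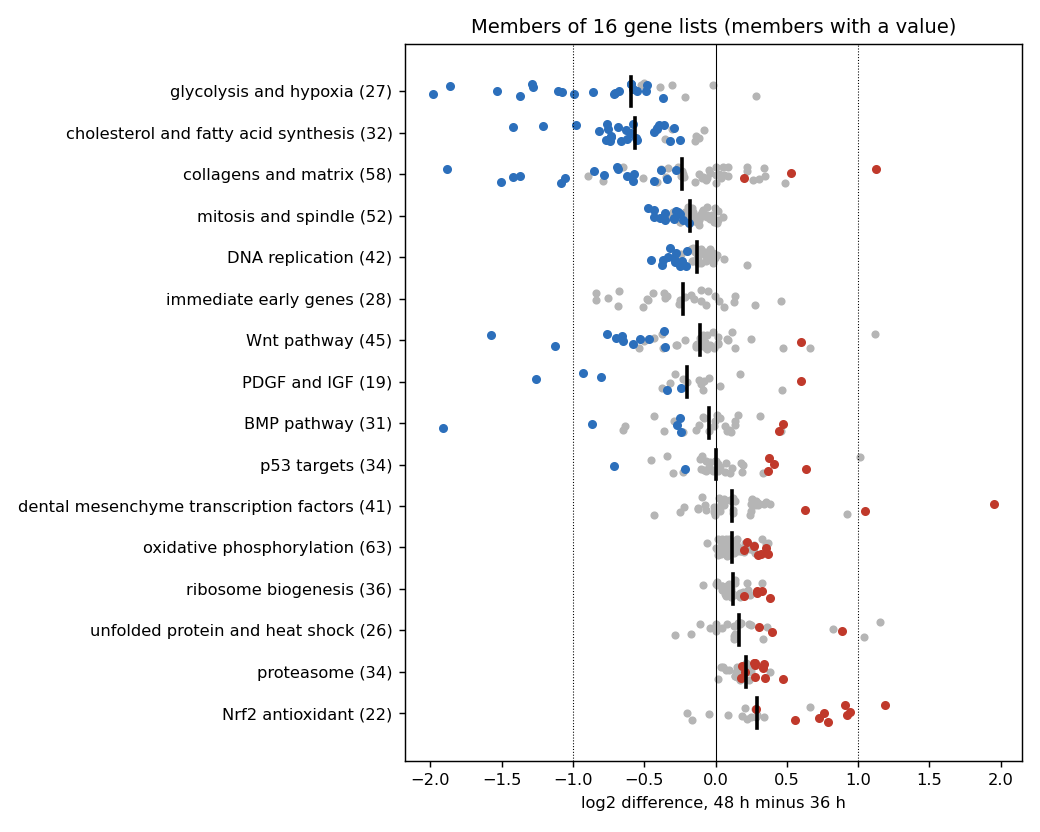
Log2 difference of 48 h minus 36 h for the members of 16 gene lists, with the number of members with a value in brackets, red and blue for members that rose or fell at p below 0.05, grey for the rest, and a black bar at the median. The glycolysis and the sterol lists lie mainly to the left of 0, the proteasome and oxidative phosphorylation lists lie just to the right, and dotted lines mark 2-fold.

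Among collagens and other matrix genes, 17 of 58 fell (6.98% of all transcripts) and 3 rose (6.39%), with a median of -0.233. By more than 2-fold 6 fell (0.96% of all) and 1 rose (0.397%). Col1a1, a chain of type I collagen, scored 28764, 28764 and 25013 at 36 h and 17348, 18505 and 15596 at 48 h (-0.68 ± 0.18, adjusted p = 0.161), and the fibrillar collagens Col3a1 (-0.69 ± 0.20) and Col11a1 fell as well. The prolyl hydroxylases of collagen, also HIF targets, fell too. P4ha1, counted in both lists, scored 19251, 18544 and 18544 at 36 h and 10099, 5903 and 6421 at 48 h (-1.37 ± 0.36, adjusted p = 0.161). P4ha2 scored 4029, 4092 and 3914 at 36 h and 2286, 1515 and 1965 at 48 h (-1.08 ± 0.27, adjusted p = 0.145). Eln, the elastin gene, fell and scored 1337, 1286 and 1063 at 36 h and 657, 607 and 198 at 48 h. Fbn2, a fibrillin, fell and scored 16524, 17385 and 7913 at 36 h and 5483, 4655 and 4615 at 48 h. Thrombospondin 2, Thbs2, differed by -1.06 ± 0.30 and the proteoglycan syndecan 4, Sdc4, by -0.62 ± 0.17. The 3 that rose were Loxl3 (574, 582 and 669 at 36 h and 623, 2302 and 1628 at 48 h), Postn, or periostin (0.53 ± 0.24), and Fbln2 (0.20 ± 0.09). Without replicate 3 of 48 h 11 fell and without replicate 1 of 48 h 20, and 1 rose without replicate 1 or 2 of 36 h or replicate 2 of 48 h.

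Of 31 matrix proteases and their inhibitors 8 rose (6.39% of all transcripts) and 2 fell (6.98%), with a median of -0.044, and 5 rose without replicate 3 of 48 h. The falls were 4 without replicate 3 of 36 h and 1 without replicate 1 of 36 h or replicate 3 of 48 h. The plasminogen activator Plat scored 736, 789 and 531 at 36 h and 1081, 932 and 1283 at 48 h (0.69 ± 0.19, adjusted p = 0.161). The protease inhibitor Serpine2 scored 2496, 2247 and 1243 at 36 h and 3009, 2958 and 3693 at 48 h (0.75 ± 0.21, adjusted p = 0.171), and without replicate 3 of 36 h its difference was 0.44. Timp1, a tissue inhibitor of metalloproteinases, scored 5704, 5704 and 6906 at 36 h and 12916, 7867 and 8254 at 48 h (0.63 ± 0.19, adjusted p = 0.184), and without replicate 1 of 48 h its difference was 0.41. The collagenase Mmp13 rose by 0.78 ± 0.25. The 2 that fell were Adamts1 (-0.72 ± 0.26) and Reck (-0.53 ± 0.19), the latter a membrane inhibitor of metalloproteinases. Of 23 integrins and cadherins 3 rose and 3 fell, with Itgb5 at -0.52 ± 0.16, Itga8 at -0.84 ± 0.29 and Itga11 at -0.53 ± 0.21, where 6.39% of all transcripts rose and 6.98% fell. None rose without replicate 1 or 2 of 36 h, Itga8 did not pass without replicate 1 of 48 h, and Itga11 did not pass without replicate 2 of 36 h.

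Among growth factor pathways, 5 of 19 genes of the PDGF and IGF list fell and 1 rose, and 11 of 45 of the Wnt list fell and 1 rose, where 6.98% of all transcripts fell and 6.39% rose. In the PDGF and IGF list 2 fell and none rose without replicate 3 of 48 h, and 3 fell and none rose without replicate 1 or 2 of 36 h. In the Wnt list 8 to 14 fell as each library was left out, and 3 rose without replicate 3 of 36 h and 2 without replicate 1 of 48 h. Pdgfb, a ligand of the PDGF receptors, scored 354, 388 and 487 at 36 h and 156, 197 and 157 at 48 h (-1.26 ± 0.21, adjusted p = 0.0698). The receptor Pdgfra, a mesenchymal marker, scored 3070, 3106 and 3500 at 36 h and 2544, 2485 and 2608 at 48 h (-0.34 ± 0.08, adjusted p = 0.124). The growth factor Igf1 differed by -0.93 ± 0.41 and its carrier Igfbp2 by -0.80 ± 0.31, while the carrier Igfbp6 rose by 0.60 ± 0.27. Igfbp2 did not pass without replicate 3 of 36 h or replicate 3 of 48 h. In the Wnt list, Nkd1, a feedback inhibitor, scored 165, 147 and 160 at 36 h and 69, 82 and 64 at 48 h (-1.13 ± 0.20, adjusted p = 0.0698). The secreted Dkk3 scored 11622, 11622 and 10090 at 36 h and 7501, 7223 and 7590 at 48 h (-0.58 ± 0.14, adjusted p = 0.130). The antagonist Dkk1 scored 47, 57 and 49 at 36 h and 14, 8 and 38 at 48 h (-1.57 ± 0.48). The antagonists Sfrp1 (-0.76 ± 0.21) and Sfrp2 (-0.66 ± 0.17) fell too. The feedback target Axin2 scored 533, 547 and 710 at 36 h and 651, 310 and 238 at 48 h, so replicate 1 of 48 h lay among the 36 h libraries. The ligand Wnt5b fell (230, 207 and 214 at 36 h and 126, 152 and 136 at 48 h, -0.65 ± 0.15, adjusted p = 0.130) and the ligand Wnt11 rose (206, 195 and 165 at 36 h and 332, 238 and 293 at 48 h). The coreceptors Lrp5 (-0.36 ± 0.10) and Lrp6 (-0.36 ± 0.13) fell as did Ror1 (-0.47 ± 0.21). Wnt5a, a mesenchymal ligand, scored 4183, 4306 and 5076 at 36 h and 3833, 4927 and 4651 at 48 h. The 95% interval of its difference was -0.32 to 0.29.

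In the BMP list 5 of 31 fell (6.98% of all transcripts) and 2 rose (6.39%), so the rises are near the background. As each library was left out 3 to 7 fell and 0 or 1 rose. Beside Bmp3, the ligand Bmp5 fell (137, 130 and 127 at 36 h and 94, 49 and 79 at 48 h, -0.87 ± 0.28, adjusted p = 0.210). Bmp4, a ligand of the early tooth mesenchyme, scored 5154, 5154 and 5667 at 36 h and 3906, 5154 and 4272 at 48 h (-0.27 ± 0.12, adjusted p = 0.373), with overlap between the times, and it did not pass in 10 of 16 alternatives. Others that fell were the receptor Bmpr1a (-0.24 ± 0.09) and the signal transducer Smad1 (-0.25 ± 0.08), which did not pass without replicate 3 of 36 h. The antagonist Grem1 (20818, 19215 and 28694 at 36 h and 36335, 23160 and 36335 at 48 h) and the target Id2 (0.45 ± 0.21) rose. Of 23 genes of the TGF-beta pathway 4 fell (2 without replicate 2 of 36 h) and none rose, among them Ltbp4 (-0.59 ± 0.20) and Tgfbi (-0.52 ± 0.20). Tgfbi did not pass without replicate 2 of 36 h or replicate 3 of 48 h. Ccn2, a matricellular target gene, scored 40642, 50435 and 50435 at 36 h and 31803, 20869 and 17357 at 48 h (-1.06 ± 0.28, adjusted p = 0.161). Of 21 FGF and MAPK feedback genes 1 fell (Fgfr3, -0.40 ± 0.12), but 4 fell without replicate 3 of 48 h, and 2 rose and 2 fell without replicate 1 of 48 h. Among 13 Hedgehog genes Disp1 rose (0.40 ± 0.16) while Cdon (-0.43 ± 0.13) and Smo (-0.19 ± 0.08) fell. Disp1 did not pass without replicate 3 of 36 h, nor Smo without replicate 1 of 48 h. Of 18 Notch genes 1 rose (Hey1, 203, 194 and 158 at 36 h and 198, 457 and 326 at 48 h) and 1 fell (Numb, -0.20 ± 0.08), and Numb did not pass without replicate 3 of 36 h. Without replicate 2 of 48 h the difference of Hey1 was 0.46. Fgf10, a mesenchymal ligand, scored 1070, 1112 and 1299 at 36 h and 1088, 1237 and 1039 at 48 h, a difference of -0.05 ± 0.10.

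Among transcription factors of dental mesenchyme, 41 of 46 listed had values, 3 rose and none fell, with a median of 0.112. The count of 3 is near the background, since 6.39% of all transcripts rose. The interval of the difference stayed within 2-fold for 30 of the 41, a smaller share than the 88.4% of all transcripts, so larger movements are less tightly bounded here. Msx1, the homeobox factor of odontogenic mesenchyme, scored 3693, 3730 and 3238 at 36 h and 3238, 3770 and 3545 at 48 h, a difference of -0.01 with a 95% interval of -0.19 to 0.16. Lhx6 scored 1384, 1321 and 1283 at 36 h and 1268, 1272 and 1437 at 48 h (-0.01, interval -0.24 to 0.23). Pax9 scored 769, 739 and 694 at 36 h and 619, 1056 and 1023 at 48 h (0.25 ± 0.22, adjusted p = 0.693). Replicate 1 of 48 h was the lowest library and the other replicates of 48 h the highest. Dlx2 scored 385, 405 and 391 at 36 h and 389, 512 and 521 at 48 h (0.26 ± 0.30). The 3 that rose were Dlx1, Msx2 and Dlx3. Dlx1 scored 2090, 1995 and 2114 at 36 h and 2294, 2891 and 4892 at 48 h (0.63 ± 0.22, adjusted p = 0.253). Msx2 scored 90, 92 and 72 at 36 h and 123, 208 and 210 at 48 h (1.05 ± 0.32, adjusted p = 0.196). Dlx3 was near the bottom of the scale (0, 0 and 2 at 36 h and 4, 4 and 6 at 48 h) and did not pass with a pseudocount of 16, and Dlx1 did not pass without replicate 3 of 48 h. From 24 h to 36 h their log2 differences had been -1.19, -1.23 and -2.30. Ngfr, a neural crest receptor, stood at 20, 21 and 13 at 36 h and 18, 21 and 21 at 48 h. Without replicate 1 of 48 h 7 of the 41 rose, and without replicate 3 of 48 h 2.

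Among 20 osteoblast and odontoblast genes 4 fell (6.98% of all transcripts) and 2 rose (6.39%). The phosphatase Alpl scored 89, 105 and 163 at 36 h and 65, 27 and 47 at 48 h (-1.38 ± 0.31, adjusted p = 0.124). The keratan sulfate proteoglycan Omd scored 769, 785 and 703 at 36 h and 462, 394 and 466 at 48 h (-0.77 ± 0.18, adjusted p = 0.124). The parathyroid hormone receptor Pth1r scored 463, 446 and 485 at 36 h and 334, 266 and 264 at 48 h (-0.70 ± 0.16, adjusted p = 0.124). For these 3, named for the smallest p in the list, and for Col1a1, every 48 h library lay below every 36 h library (12.1% of all transcripts). Spp1, or osteopontin (752, 715 and 676 at 36 h and 1253, 964 and 2071 at 48 h), and Postn rose. Neither passed without replicate 3 of 48 h, and 1 gene of the list rose when any 1 library of 36 h was left out.

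Some cell cycle genes fell, by small amounts. Of 42 DNA replication genes 13 fell, and of 52 genes of mitosis and the spindle 13 fell, where 6.98% of all transcripts fell. None rose in either list, and the medians were -0.133 and -0.182. No member reached 2-fold, and the 95% interval of every member of both lists stayed within 2-fold. Mcm3, a subunit of the replicative helicase, scored 4048, 4074 and 4163 at 36 h and 2827, 3123 and 3043 at 48 h (-0.45 ± 0.07, adjusted p = 0.0698). The sliding clamp gene Pcna scored 3480, 3292 and 3566 at 36 h and 3014, 2584 and 2680 at 48 h (-0.32 ± 0.10, adjusted p = 0.203). The single-strand binding subunit Rpa2 scored 1308, 1365 and 1233 at 36 h and 1185, 946 and 911 at 48 h (-0.37 ± 0.10, adjusted p = 0.171). In mitosis, the kinase Aurkb scored 1237, 1237 and 1341 at 36 h and 956, 970 and 906 at 48 h (-0.43 ± 0.09, adjusted p = 0.107). The cytokinesis factor Ect2 scored 3106, 3138 and 3674 at 36 h and 2557, 2537 and 2063 at 48 h (-0.47 ± 0.13, adjusted p = 0.161). The Aurora partner Birc5 scored 1312, 1253 and 1386 at 36 h and 992, 1098 and 994 at 48 h (-0.36 ± 0.10, adjusted p = 0.180). In these 3 genes, named for the smallest p in the list, the times did not overlap. All 48 h libraries lay below the 36 h libraries for 12.1% of all transcripts. The topoisomerase Top2a was separate too (13296, 13670 and 15112 at 36 h and 11636, 10718 and 8952 at 48 h, -0.43 ± 0.13, adjusted p = 0.196). As each library was left out, 8 to 13 of the 42 DNA replication genes fell, 8 of them without replicate 2 of 36 h. The mean of the mitosis list relative to 36 h was -0.368, 0.006 and -0.176 in the 48 h libraries, so replicate 2 stood level with 36 h. Without replicate 1 of 48 h 6 of the 52 fell and without replicate 3 of 36 h 7, against 16 without replicate 2 of 48 h. In the list of G1 cyclins and E2F factors 4 of 22 fell. E2f2 scored 25, 31 and 32 at 36 h and 14, 6 and 15 at 48 h. Mycn (-0.97 ± 0.24) and E2f7 (-0.47 ± 0.16) were among them. Of 6 CDK inhibitors Cdkn2d fell (-0.30 ± 0.13) but did not pass in 5 of the 6 fits that left out a library, and Cdkn1a scored 2671, 2509 and 1988 at 36 h and 2351, 2460 and 2369 at 48 h.

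Promoters of many mitotic genes are known to carry a pair of elements, the cell cycle homology region TTTGAA and the CCAAT box, and these were counted in the same windows. TTTGAA on either strand was present in 31 of 43 promoters found (72.1%) and in 11.6% of all 9279, and CCAAT in 72.1% against 39.2%. Ect2 (chr3:27153805-27154104, - strand) and Top2a (chr11:99024140-99024439, - strand) are shown as members that fell, with the TTTGAA element, the CCAAT box and their reverse complements in capitals. The shares describe the whole list and not the members that fell.
Ect2: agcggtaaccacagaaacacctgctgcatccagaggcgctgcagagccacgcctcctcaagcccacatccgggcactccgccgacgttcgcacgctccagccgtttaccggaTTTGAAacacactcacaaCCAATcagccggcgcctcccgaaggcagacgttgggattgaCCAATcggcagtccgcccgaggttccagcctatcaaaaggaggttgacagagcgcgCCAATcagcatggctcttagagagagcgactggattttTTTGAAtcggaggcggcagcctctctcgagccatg
Top2a: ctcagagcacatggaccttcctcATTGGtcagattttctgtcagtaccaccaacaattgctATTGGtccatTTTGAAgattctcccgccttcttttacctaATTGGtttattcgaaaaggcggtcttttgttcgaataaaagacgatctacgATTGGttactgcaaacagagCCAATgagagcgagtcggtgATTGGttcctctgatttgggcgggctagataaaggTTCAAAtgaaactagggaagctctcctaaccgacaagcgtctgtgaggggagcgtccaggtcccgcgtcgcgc

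In the opposite direction, 9 of 22 antioxidant genes of the Nrf2 pathway rose and none fell, with a median of 0.287, where 6.39% of all transcripts rose. Hmox1, heme oxygenase 1, scored 1574, 1619 and 1493 at 36 h and 2235, 2921 and 6934 at 48 h (1.19 ± 0.34, adjusted p = 0.174) and was past 2-fold, as were 0 to 5 members as each library was left out. Gsto1, a glutathione transferase, scored 1436, 1408 and 1215 at 36 h and 2600, 1966 and 2481 at 48 h (0.79 ± 0.16, adjusted p = 0.112). The autophagy receptor Sqstm1 scored 4902, 4824 and 4713 at 36 h and 5990, 7242 and 11655 at 48 h (0.73 ± 0.19, adjusted p = 0.161). Of the glutathione synthesis subunits, Gclc scored 1127, 1150 and 1277 at 36 h and 1821, 1280 and 2264 at 48 h and Gclm 242, 239 and 287 at 36 h and 272, 503 and 804 at 48 h. Srxn1 (0.92 ± 0.32), Nqo1 (0.76 ± 0.32), Gsta4 (0.95 ± 0.38) and the ferritin chain Ftl1 (0.28 ± 0.11) made up the rest. Replicate 3 of 48 h was the highest library for Hmox1, Sqstm1, Gclc and Gclm, and replicate 1 of 48 h lay within the 36 h range for Gclm. Without replicate 3 of 48 h the differences of Hmox1 and Sqstm1 were 0.71 and 0.45. The list mean relative to 36 h was 0.077, 0.365 and 0.846 in the 48 h libraries. The count was 4 without replicate 3 of 48 h and 15 without replicate 1 of 48 h.

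**Figure D5:**
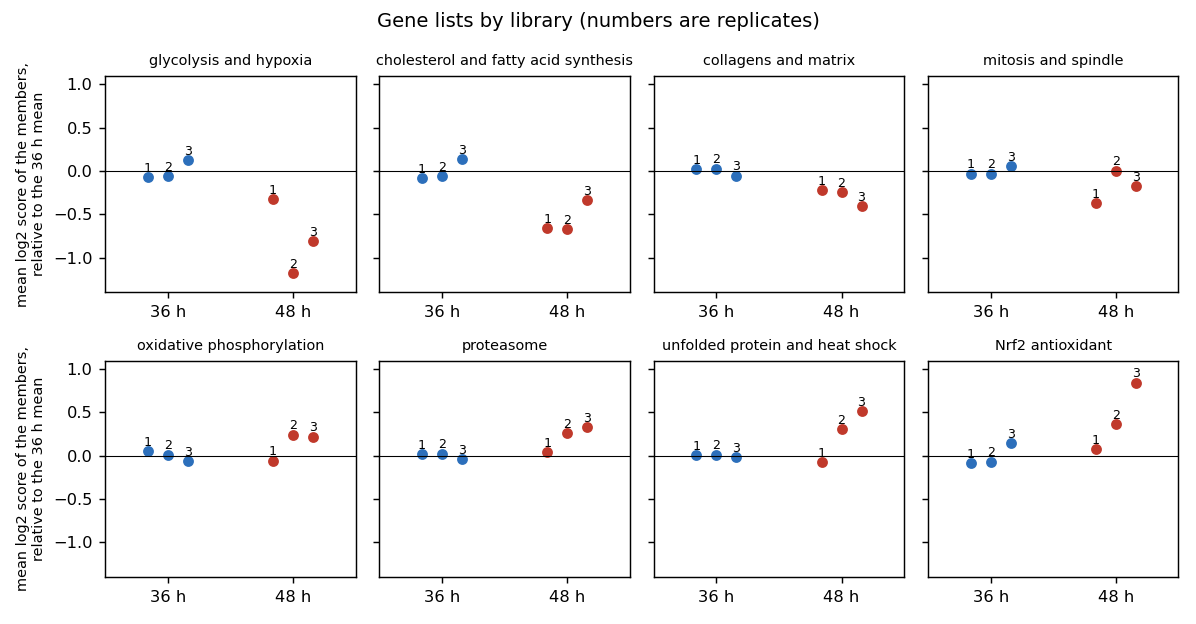
Mean log2 score of the members of 8 gene lists in each library, relative to the mean of the 36 h libraries (line at 0), blue for 36 h and red for 48 h, with the replicate number above each point. The 48 h libraries spread most for the glycolysis list (-0.32 to -1.182) and the Nrf2 list (0.077 to 0.846).

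Some proteasome and respiration genes rose, by small amounts, where 6.39% of all transcripts rose. All 34 proteasome genes had a positive difference (median 0.21) and 11 rose. The core particle gene Psmb3 scored 2280, 2320 and 2502 at 36 h and 2553, 3611 and 3833 at 48 h (0.47 ± 0.13, adjusted p = 0.165). Psmb7, a catalytic core gene, scored 4449, 4396 and 4166 at 36 h and 5144, 5373 and 5959 at 48 h (0.34 ± 0.09, adjusted p = 0.169), and the ubiquitin receptor Psmd4 differed by 0.20 ± 0.08. Of 63 oxidative phosphorylation genes 62 had a positive difference (median 0.113) and 7 rose. The complex I gene Ndufa9 scored 2977, 2827 and 2679 at 36 h and 3290, 3762 and 3817 at 48 h (0.36 ± 0.12, adjusted p = 0.237), and the complex I gene Ndufv2 (0.37 ± 0.12) and the complex II gene Sdhb (0.22 ± 0.08) followed by p. The list means differed between the 48 h libraries. Relative to 36 h, the mean of the respiration list was -0.056, 0.245 and 0.222 in the 48 h libraries, and that of the proteasome list 0.042, 0.258 and 0.327. The counts moved as single libraries were left out. Without replicate 1 of 48 h 27 of 63 respiration and 21 of 34 proteasome genes rose, without replicate 2 of 48 h 1 and 3, and without replicate 3 of 48 h 3 and 2. Without replicates 1, 2 or 3 of 36 h 7, 5 or 5 respiration and 5, 3 or 6 proteasome genes rose. Psmd4, Ndufv2 and Sdhb each failed to pass when 1 of the libraries was left out.

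Of 26 heat shock and unfolded protein genes 3 rose. The chaperone Hspa8 scored 23247, 23247 and 19261 at 36 h and 31886, 40684 and 50508 at 48 h (0.88 ± 0.16, adjusted p = 0.0715), and the others were Hsp90ab1 (0.40 ± 0.14) and the mitochondrial Hspe1 (0.30 ± 0.12). Without replicate 3 of 48 h 1 of the 26 rose, and Hsp90ab1 did not pass without replicate 3 of 36 h nor Hspe1 without replicate 3 of 48 h. The log2 difference of Hspa8 from 24 h to 36 h had been -0.84, and its slope change was 1.73 (adjusted p = 0.0198). Ribosome biogenesis genes were positive in 35 of 36 (median 0.125) and 5 rose (6.39% of all transcripts), with Rrp9 at 0.29 ± 0.10, Nop2 at 0.29 ± 0.11 and Noc3l at 0.33 ± 0.14. In 5 of the 6 fits that left out a library only 1 or 2 rose, and none of these 3 genes passed without replicate 3 of 48 h. Of 33 lysosomal genes 4 rose, with Ctsb at 0.22 ± 0.07 and Lamp2 at 0.24 ± 0.10, and 1 rose without replicate 3 of 48 h. Ctsb did not pass without that library, nor Lamp2 without replicate 1 of 48 h. Only 6 of 78 cytosolic ribosomal protein genes, 14 of 26 interferon genes and 20 of 29 cytokine genes had values, and these lists are not described further.

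Of 34 targets of p53 4 rose (6.39% of all transcripts) and 2 fell (6.98%), with a median of 0.001. Without replicate 3 of 36 h 1 rose, without replicate 1 or 3 of 48 h 2 rose, and without replicate 1 of 48 h 4 fell. Ccng1 scored 36423, 36423 and 36423 at 36 h and 50500, 40680 and 50500 at 48 h (0.37 ± 0.11, adjusted p = 0.180). Mdm2, the ubiquitin ligase of p53, scored 10404, 10404 and 9163 at 36 h and 13266, 11567 and 15054 at 48 h (0.41 ± 0.15, adjusted p = 0.260) and did not pass without replicate 3 of 48 h. Their log2 differences from 24 h to 36 h had been 0.90 and 1.27. Cd82 fell (-0.72 ± 0.23). Of 28 immediate early genes none passed p below 0.05, with a median of -0.232. Fos scored 1543, 1531 and 1279 at 36 h and 595, 943 and 1312 at 48 h, and replicate 3 of 48 h lay within the 36 h range. Dusp1 scored 1995, 1888 and 2295 at 36 h and 1105, 1374 and 1368 at 48 h. Among 16 clock genes 4 rose and 1 fell, while 2 rose without replicate 2 or 3 of 48 h and 3 fell without replicate 1 of 48 h. The nuclear receptor Nr1d2 scored 403, 423 and 462 at 36 h and 528, 1195 and 1157 at 48 h and its paralog Nr1d1 18, 23 and 23 at 36 h and 30, 43 and 70 at 48 h, both past 2-fold, as were 0 to 3 rises of the list as each library was left out. The output factors Tef (0.59 ± 0.17) and Per3 (0.86 ± 0.26) rose, and the repressor Cry1 fell (-0.49 ± 0.13). Of 39 axon guidance genes 6 rose and 2 fell, and 3 rose without replicate 1 of 36 h or replicate 3 of 48 h. None of them fell without replicate 3 of 36 h and 4 fell without replicate 1 of 48 h. The semaphorin Sema3c scored 2103, 2150 and 1775 at 36 h and 2963, 3782 and 5487 at 48 h (0.98 ± 0.29, adjusted p = 0.187), with the netrin receptor Unc5c at 0.58 ± 0.14 and the plexin Plxnd1 at 0.76 ± 0.23. In the amino acid stress list 3 of 30 rose (1 without replicate 3 of 36 h) and 3 fell, with Shmt2 at -0.54 ± 0.13, Aars at 0.26 ± 0.07, Vldlr at -1.03 ± 0.33 and Ddit3 at 0.73 ± 0.28. Of 31 contractile and YAP target genes 2 rose (1 without replicate 1 or 2 of 36 h or replicate 1 of 48 h) and 3 fell (5 without replicate 2 of 48 h), with non-muscle myosin Myh10 at -0.62 ± 0.13 and caldesmon Cald1 at 0.31 ± 0.12. Of 16 histone genes 3 fell (1 without replicate 1 of 36 h), with H2afv at -0.49 ± 0.16, Hist1h1c at -0.31 ± 0.10 and Hist2h2aa1 at -0.40 ± 0.14. H2afv and Hist2h2aa1 did not pass without replicate 1 of 36 h. Histone and heat shock genes belong to families with similar copies, so reads may be shared among them.

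The widest spread within a time belonged to epithelial keratins and to a pair of genes listed at 0 in some libraries. Krt14, a keratin of basal epithelium, scored 272, 365 and 3 at 36 h and 166, 742 and 346 at 48 h. Krt17 scored 348, 340 and 4 at 36 h and 204, 695 and 373 at 48 h. Krt6a scored 261, 395 and 0 at 36 h and 176, 858 and 339 at 48 h. Replicate 3 of 36 h was near 0 for all 3, and without it their log2 differences of 2.25, 2.16 and 2.99 became 0.15, 0.13 and 0.21. Srp54a, a subunit of the signal recognition particle with similar copies in the genome, scored 0, 0 and 972 at 36 h and 0, 582 and 772 at 48 h. Gm11008 scored 115, 0 and 125 at 36 h and 131, 101 and 130 at 48 h. Their differences of 2.95 ± 2.83 and 2.31 ± 1.36 did not pass.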

How the data were processed

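RNA-seq libraries were prepared with a TruSeq kit and sequenced on an Illumina instrument. Per the study's methods, the authors trimmed adaptors, aligned reads with bowtie and quantified transcripts with RSEM against mm10 and Ensembl annotation. The submitters' processing notes name RSEM 1.1.21 and the study's methods name a later version. The deposited values are whole-number scores per transcript on one shared distribution over libraries. They are labelled as cpm but are not, and the scaling step is not given in the sources used here. Depth is unknown, so no counting interval is given, and the number of libraries limits the precision.

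Scores were transformed as log2(score + 1) with a pseudocount of 1 and no filter. limma 3.58.1 in R 4.3.3 was fitted to the 14 mDMC libraries with 1 mean per time and a trended prior, over all 12089 transcripts, since the authors' DESeq2 test needs counts. Calls used an unadjusted p below 0.05, alone or with a fold above 2, and Benjamini-Hochberg adjusted p-values stand beside them. Transcript identifiers were matched to GENCODE M21 on GRCm38, the same assembly as mm10: 11973 matched 11960 genes and 116 did not. Of the matched transcripts 10529 are annotated as protein coding, 468 as processed transcripts and 389 as retained introns. The value under a gene name can thus be that of a non-coding isoform. The fit was tested on simulated data. Summaries and figures used Python 3.11.15, pandas 2.3.3 and matplotlib 3.10.9.

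The comparison, gene lists and tests were chosen with earlier results of these data known. Genes were named by rule: the 10 largest rises and falls among called genes with no overlap and a mean of at least 100 at either time, the 3 or fewer members with the smallest p in each list, 10 genes the study names, the 5 with the largest spread within a time and the 5 with the smallest adjusted p for the change of slope. Other list members were named for their role after their values were seen. Alternatives were another pseudocount, low-value filters, trimmed-mean scaling, only the 6 libraries, a replicate block, array weights, other thresholds and each library left out.

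Some results are not reported here.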

Additional observations from a re-analysis of the deposited data

How the results depend on the processing

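The counts rest on single libraries and on how the spread is estimated. Of the transcripts past p below 0.05 and 2-fold, the 48 risen became 25 with a pseudocount of 16 and 114 with array quality weights, and 29 to 103 as each library was left out, the extremes without replicates 3 and 1 of 48 h. The 116 fallen became 191 with array weights and 101 to 170 as each library was left out. With the adjusted p and a fold above 2, 0 rose and 0 fell, and with a fold above 1.5, 186 rose and 311 fell. At any fold, the 773 risen became 2258 with array weights and 433 to 1065 as each library was left out (433 without replicate 3 of 48 h, 515 without replicate 1 of 36 h), and the 844 fallen became 2096 with array weights and 568 to 1041. At an adjusted p below 0.05, the 0 risen and 3 fallen became 6 and 11 with only the 6 libraries in the fit, 1343 and 1303 with array weights, and 0 to 97 and 0 to 103 as each library was left out. The fallen were 1 without transcripts tied in 3 libraries, an alternative chosen after seeing the data. The upward and downward changes of slope, 18 and 64, became 3174 and 2918 with array weights and 0 to 501 and 6 to 514 as each library was left out. The array weights did not converge and ran from 0.237 to 10.3.

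Deviations of same-numbered libraries of 36 h and 48 h correlated at 0.083, -0.044 and 0.096, and those of 24 h with both at 0.126 to 0.315. Same-numbered libraries of 0 h and 12 h correlated at -0.245 and 0.319. With values of this size in both directions, whether the numbers pair the times is not settled, which bears on the change of slope. With the replicate block, 50 rose and 120 fell past p and 2-fold, 1 rose and 6 fell at an adjusted p below 0.05, and 102 and 150 changed slope upward and downward. No result past its threshold reversed under any alternative run, and trimmed-mean scaling moved the median of all transcripts from 0.011 to -0.0074.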

Other observations

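Among the 27 transcripts with an adjusted p below 0.1, several belong to none of the gene lists and are named here after their values were seen. Values with ± are log2 differences of 48 h minus 36 h with their SE. Cyp26b1, which degrades retinoic acid, scored 1044, 1108 and 1145 at 36 h and 635, 528 and 504 at 48 h (-0.99 ± 0.16, adjusted p = 0.0698). Higd1a, a mitochondrial protein of the hypoxia-induced gene family, scored 3452, 3470 and 3857 at 36 h and 2164, 1330 and 1698 at 48 h (-1.08 ± 0.19, adjusted p = 0.0698). The aldolase Aldoc scored 58, 73 and 78 at 36 h and 23, 8 and 11 at 48 h (-2.35 ± 0.42, adjusted p = 0.0715). The peroxiredoxin Prdx6 scored 3881, 3608 and 3925 at 36 h and 5134, 5059 and 6010 at 48 h (0.50 ± 0.09, adjusted p = 0.0804). The phosphate transporter Slc20a1 scored 3414, 3461 and 3980 at 36 h and 4631, 5462 and 6772 at 48 h (0.62 ± 0.12, adjusted p = 0.0962). Iqgap3, a scaffold protein of dividing cells, scored 2327, 2361 and 2304 at 36 h and 1613, 1906 and 1591 at 48 h (-0.46 ± 0.08, adjusted p = 0.0698). In all 6 genes the libraries of the 2 times did not overlap. The same held for every transcript under that threshold, so the separation adds nothing to the adjusted p.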
